A study of Mus musculus with 6 samples.

Results

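10 named tuft cell identity genes were followed in DSS-injured mouse colon with and without epithelial Nedd4l. The genes were chosen by name, as the tuft cell transcription factors Pou2f3 and Gfi1b, the taste-type signaling genes Trpm5 and Plcg2, the structural and adaptor genes Dclk1, Avil and Sh2d6, the cytokine Il25, and the leukotriene genes Alox5 and Alox5ap. Of these 10 genes, 9 had a row among the 27202 genes of the expression table, and Il25 was not analysed here. The mean over the 6 libraries was at least 10 normalized counts for 7 of the 9, so that these 7 entered the test across 16246 genes. Pou2f3 and Gfi1b lay below that level and are given by their values.

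RNA from whole colon was sequenced in 3 libraries of Nedd4l f/f VillinCre mice (cKO) and 3 of Nedd4l f/f littermates (WT). In the cKO mice, Cre under the Villin promoter deletes Nedd4l, which encodes an E3 ubiquitin ligase, from intestinal epithelial cells, whereas both genotypes carry the floxed Nedd4l alleles. The mice were 8 to 10 weeks old and had 2% dextran sulfate sodium (DSS), a polysaccharide that injures the colonic epithelium, in their drinking water until day 7. The values are normalized counts, that is, reads per gene divided by 1 size factor for each library, and no untreated mice were analysed here.

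Tuft cells are rare chemosensory cells of the epithelium that arise under the transcription factor Pou2f3. They sense luminal metabolites through a cascade shared with taste cells, in which a G protein activates phospholipase C, calcium is released from internal stores and the cation channel Trpm5 opens. In the intestine they release IL-25, which acts on innate lymphoid cells through the receptor Il17rb, and those cells return IL-13 to the epithelium, and tuft cells also make cysteinyl leukotrienes and prostaglandin D2. In whole tissue, fewer tuft cells and less RNA per tuft cell cannot be told apart.

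Nedd4l itself was read first. Its normalized count was 476, 942 and 566 in cKO 1, 2 and 3, against 1241, 1271 and 1266 in WT 1, 2 and 3. Every cKO library was below every WT library, and cKO 2 kept the highest level of the 3 (log2 fold change of normalized count + 1 −0.99, SE 0.24, adjusted p = 0.225 from limma, and −1.28 with an adjusted p of 0.0130 without cKO 2). Over the genes tested, cKO 2 had a mean correlation of 0.977 with the WT libraries and 0.966 with the other cKO libraries. The correlation with the own genotype was higher for cKO 1 (0.963 against 0.948 with WT) and only slightly so for cKO 3 (0.975 against 0.973). Results that rest on cKO 2 are therefore given with and without it. Since cKO 2 was singled out by its values in these same libraries, a larger difference without it is not independent support. The epithelial markers Epcam and Krt8 were high in every library, with Epcam between 20973 and 24439 normalized counts and Krt8 between 65762 and 85765.

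Among the members, Sh2d6 and Trpm5 had the lowest cKO levels relative to WT, with log2 fold changes of −1.78 and −1.76. Dclk1, Avil, Plcg2 and Alox5 stayed within 0.26 of 0 on that scale, with intervals given for each below, and Alox5ap was higher in cKO, by 1.27. None of the 7 tested members passed an adjusted p under 0.05 in limma, nor did any other gene (0% of 16246 lower and 0% higher). An unadjusted p under 0.05 was reached by 2 of the 7 members on the lower and 0 on the higher side, against 7.08% of all genes tested on the lower and 6.91% on the higher side. All 3 cKO libraries lay below all 3 WT libraries for 1 of the 7 tested members, Sh2d6, where this held for 10.9% of all genes tested. The median log2 fold change of the 7 was −0.17, against 0.0013 over all genes tested, and its sign depended on the setting, from −0.74 with array weights to 0.24 without cKO 3.

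**Figure D1:**
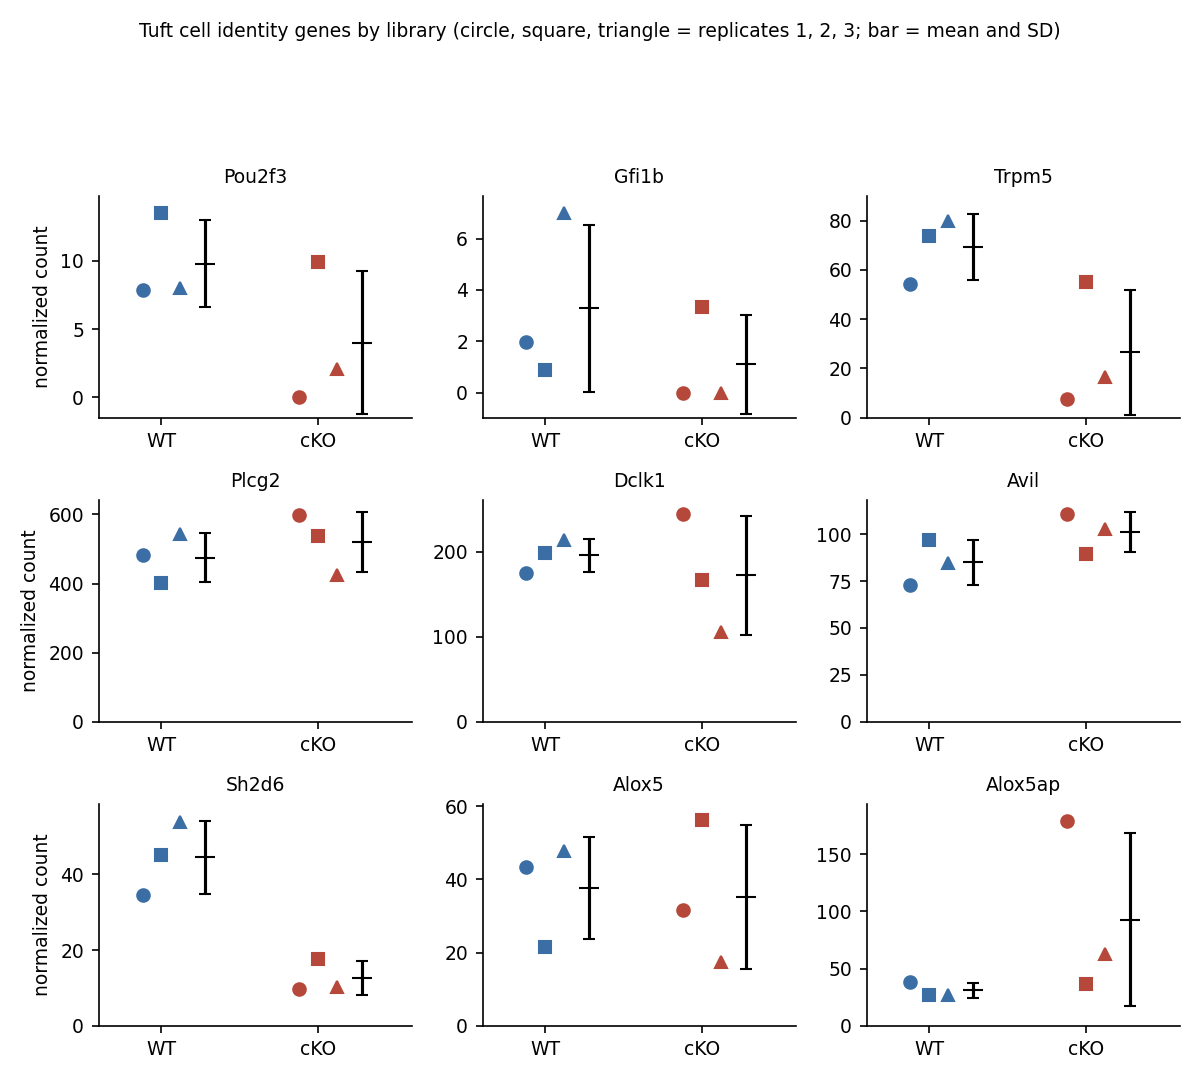
Normalized count (vertical axis, linear) of the 9 members found, in 3 WT (blue) and 3 cKO (red) libraries, with circles, squares and triangles for replicates 1, 2 and 3 and black bars for the mean and SD of each genotype. The genotypes separate only for Sh2d6, where the cKO points lie between 9.59 and 17.7 and the WT points between 34.6 and 53.9.

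The transcription factors were near the limit of detection. Pou2f3 (ENSMUSG00000032015, GRCm38 chr9:43123939-43210369, minus strand), the POU domain factor on which the tuft lineage depends, had 0, 9.95 and 2.06 normalized counts in cKO 1, 2 and 3 and 7.90, 13.5 and 7.99 in WT 1, 2 and 3. The levels in cKO 1 and cKO 3 were below all WT levels, and that in cKO 2 was between WT 3 and WT 2, so the genotypes overlapped (exact permutation test, two-sided p = 0.3, where 3 against 3 allow no less than 0.1). Gfi1b (ENSMUSG00000026815, chr2:28609450-28621982, minus strand), a zinc finger repressor also used by megakaryocytes and erythroid cells, had 0, 3.32 and 0 in cKO and 1.98, 0.90 and 6.99 in WT. Since 1 read was worth between 0.90 and 1.11 normalized counts if the smallest value of a library is 1 read, Gfi1b rested on at most a handful of reads in a library and on none in cKO 1 and cKO 3, and its genotypes overlapped (exact permutation test, two-sided p = 0.3). The megakaryocyte and erythroid list of 12 genes summed to between 239 and 462 normalized counts in cKO and between 192 and 485 in WT, and its part in the Gfi1b values was not tested.

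The coactivators through which Pou2f3 acts in tuft cells were better detected, at 22.0 normalized counts per kb for Colca2 and 13.3 for 1810046K07Rik in WT against 3.17 for Pou2f3. They were picked after their values were seen. Colca2 (Pou2af3) had 15.3, 23.2 and 18.6 normalized counts in cKO against 24.7, 28.8 and 31.0 in WT, and 1810046K07Rik (Pou2af2) had 14.4, 14.4 and 9.28 against 16.8, 20.7 and 20.0. For both genes every cKO library was below every WT library, but the adjusted test was not passed, with log2 fold changes of −0.55 (SE 0.30, adjusted p = 0.427) and −0.58 (SE 0.34, adjusted p = 0.460 from limma). Hmx2, a homeobox gene of the same extended list that was also picked after its values were seen, had 0, 1.11 and 1.03 in cKO and 5.93, 5.40 and 8.99 in WT, which was below the level for testing. Hmx3, a further homeobox gene of that list and also below that level, had 0, 2.21 and 1.03 in cKO and 0, 14.4 and 3.0 in WT, which overlapped.

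Since POU factors bind the octamer ATGCAAAT, the RefSeq promoters of the members (GRCm38.p6, 250 bases before to 50 after the transcript start) were searched for it on both strands. Promoters were found for 7 of the 10 members, in 8 windows, and the 3 without one were Pou2f3, Il25 and Alox5ap. The full octamer was in 0 of the 8 windows and in 1.74% of 32851 promoters. Its first 7 bases, ATGCAAA, were in 1 window, that of Avil, and in 4.63% of all promoters. The 6 bases GCAAAT, which overlap both, were in the windows of Avil and Gfi1b and in 10.5% of all promoters. Matches and levels showed no common pattern over the 7 members, since Gfi1b (with a match) and Sh2d6 and Trpm5 (without) were below every WT level in cKO 1 and cKO 3, while Avil (with) and Plcg2, Dclk1 and Alox5 (without) were not. These matches describe letters in a window and do not show binding. The windows of Sh2d6 and Trpm5, the members with the lowest fold changes, and of Avil, which had the matches, are printed 5′ to 3′ on the strand of each gene, with matches to ATGCAAA or GCAAAT on either strand in capitals. They lie at chr6:72519987-72520286 (minus), chr7:143094593-143094892 (minus) and chr10:127000459-127000758 (plus). The Sh2d6 window lies inside the gene as its coordinates are given below, so the transcript start searched is not the 5′ end of the gene that was counted.
Sh2d6: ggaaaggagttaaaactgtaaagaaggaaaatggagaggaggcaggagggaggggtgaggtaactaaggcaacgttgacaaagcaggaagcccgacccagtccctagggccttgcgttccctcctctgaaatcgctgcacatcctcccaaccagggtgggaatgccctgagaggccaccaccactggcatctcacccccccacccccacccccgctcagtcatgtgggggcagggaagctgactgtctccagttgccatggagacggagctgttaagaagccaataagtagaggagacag
Trpm5: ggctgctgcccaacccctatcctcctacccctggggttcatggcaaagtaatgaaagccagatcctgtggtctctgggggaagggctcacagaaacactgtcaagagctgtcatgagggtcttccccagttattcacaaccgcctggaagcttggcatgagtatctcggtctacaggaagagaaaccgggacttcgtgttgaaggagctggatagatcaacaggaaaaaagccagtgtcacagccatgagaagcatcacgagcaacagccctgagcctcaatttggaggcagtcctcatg
Avil: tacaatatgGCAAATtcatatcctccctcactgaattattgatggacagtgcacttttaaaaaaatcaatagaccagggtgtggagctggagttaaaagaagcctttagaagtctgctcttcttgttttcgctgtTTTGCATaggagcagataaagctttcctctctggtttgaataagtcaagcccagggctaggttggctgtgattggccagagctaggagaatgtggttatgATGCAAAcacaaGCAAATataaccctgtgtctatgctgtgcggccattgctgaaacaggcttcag

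Trpm5 (ENSMUSG00000009246, chr7:143069153-143094642, minus strand), the calcium-activated cation channel that depolarizes tuft and taste cells, had 7.67, 55.3 and 16.5 normalized counts in cKO 1, 2 and 3 and 54.3, 73.8 and 79.9 in WT 1, 2 and 3. Levels in cKO 1 and cKO 3 were far below every WT level, whereas cKO 2 reached WT 1, so the genotypes overlapped by that library. The means were 26.5 ± 25.3 (SD, n = 3) in cKO and 69.3 ± 13.4 (SD, n = 3) in WT. The log2 fold change was −1.76 (SE 0.64, 95% interval −3.28 to −0.24, unadjusted p = 0.0287, adjusted p = 0.317 from limma), and adjusted p ranged from 0.0475 to 0.556 over the alternatives. Without cKO 2 the log2 fold change was −2.49 and the adjusted p 0.0483 from limma, a threshold that 0.320% of all genes passed as lower. Of the exon bases of Trpm5, 3.44% lie within Tssc4 on the opposite strand, and Tssc4 had 356 to 414 normalized counts in cKO and 428 to 559 in WT, so unstranded reads could be shared.

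Plcg2 (ENSMUSG00000034330, chr8:117498291-117635142, plus strand), a phospholipase C that tuft cells share with B cells and myeloid cells, had 598, 538 and 425 normalized counts in cKO and 482, 401 and 543 in WT. The genotypes were interleaved (log2 fold change 0.13, 95% interval −0.25 to 0.50, adjusted p = 0.736 from limma). Its level per kb of gene was 121 ± 20.5 in cKO and 111 ± 16.6 in WT, the highest of the members in both. The B cell list of 12 genes summed to between 4075 and 8608 normalized counts in cKO and between 3262 and 5906 in WT, with both Plcg2 and this sum highest in cKO 1 among the cKO libraries, and its part in the Plcg2 level was not tested.

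The genes upstream of Trpm5 in the taste-type cascade were either scarce or close between the genotypes. Gnat3, the G protein α subunit gustducin, had 0.959, 11.1 and 0 normalized counts in cKO and 6.91, 13.5 and 4.99 in WT, low in cKO 1 and cKO 3 as Trpm5 was. Gng13, its γ subunit, was at or below 2.06 in every library. Plcb2, the phospholipase of taste cells, had 118 to 147 normalized counts in cKO and 107 to 154 in WT (log2 fold change 0.08, SE 0.20, adjusted p = 0.865 from limma). Which cells carried Plcb2 in this whole tissue was not tested. Itpr3, the receptor that releases stored calcium and which other epithelial cells also express, had 4739 to 5337 in cKO and 4409 to 4978 in WT (0.09, SE 0.08, adjusted p = 0.648). Of the 23 genes of a taste transduction list, 20 had a row and 9 were tested, of which 5 were lower and 4 higher in cKO, and 0 passed an unadjusted or adjusted p under 0.05. The median log2 fold change of the 9 was −0.01. The genes of this list with the smallest p were Rgs13, at −1.75 and described with the extended tuft list, which also holds it, and the calcium release channel Itpr2, at −0.30 (adjusted p = 0.422 from limma).

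Dclk1 (ENSMUSG00000027797, chr3:55242364-55539068, plus strand), a microtubule-associated kinase widely used to stain tuft cells and also expressed in neurons, had 244, 167 and 105 normalized counts in cKO 1, 2 and 3 and 175, 198 and 214 in WT 1, 2 and 3. The cKO libraries spanned the WT range on both sides, with cKO 1 above and cKO 2 and 3 below every WT library (log2 fold change −0.26, SE 0.29, 95% interval −0.93 to 0.41, adjusted p = 0.699 from limma). Without cKO 3 the log2 fold change was 0.05. Dclk1 and Trpm5 thus took opposite places in cKO 1, where Dclk1 had its highest and Trpm5 its lowest level of the 6 libraries. The neuron list of 12 genes summed to 579, 226 and 483 normalized counts in cKO 1, 2 and 3 and to 313, 648 and 235 in WT, and fibroblast genes, summed over 10 markers, to 47429, 25097 and 25713 in cKO and 12578 to 21620 in WT, and the part of either in the Dclk1 values was not tested.

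Avil (ENSMUSG00000025432, chr10:127000709-127020994, plus strand) encodes advillin, an actin-binding protein of the villin family found in tuft cells and sensory neurons. It had 111, 89.5 and 103 normalized counts in cKO and 73.1, 97.2 and 84.9 in WT, with cKO 1 and cKO 3 above every WT library and cKO 2 within the WT range (log2 fold change 0.25, SE 0.20, 95% interval −0.20 to 0.71, adjusted p = 0.575 from limma). Of its exon bases, 4.86% lie within Tsfm on the opposite strand, and Tsfm had 357 to 373 normalized counts in cKO and 382 to 512 in WT.

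Sh2d6 (ENSMUSG00000052631, chr6:72513644-72521634, minus strand), an SH2 domain adaptor with expression largely restricted to tuft cells in the gut, was the member that separated the genotypes. Its normalized count was 9.59, 17.7 and 10.3 in cKO 1, 2 and 3 and 34.6, 45.0 and 53.9 in WT 1, 2 and 3. All cKO libraries were below all WT libraries, and cKO 2 was again the highest of the cKO libraries. Mean levels were 12.5 ± 4.48 (SD, n = 3) in cKO and 44.5 ± 9.69 (SD, n = 3) in WT, and an exact permutation test (two-sided) gave p = 0.1, the lowest p possible with 3 libraries on each side. The log2 fold change was −1.78 (SE 0.35, 95% interval −2.58 to −0.98, unadjusted p = 0.000923, adjusted p = 0.169 from limma), with adjusted p from 0.0179 to 0.490 over the alternatives. Without cKO 2 it was −2.03 (adjusted p = 0.0528). When limma's array weights were used, which give less weight to libraries that vary more, Sh2d6 and Trpm5 had log2 fold changes of −1.96 and −1.92 and adjusted p values of 0.0179 and 0.0475, where 2.27% of all genes passed as lower.

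**Figure D2:**
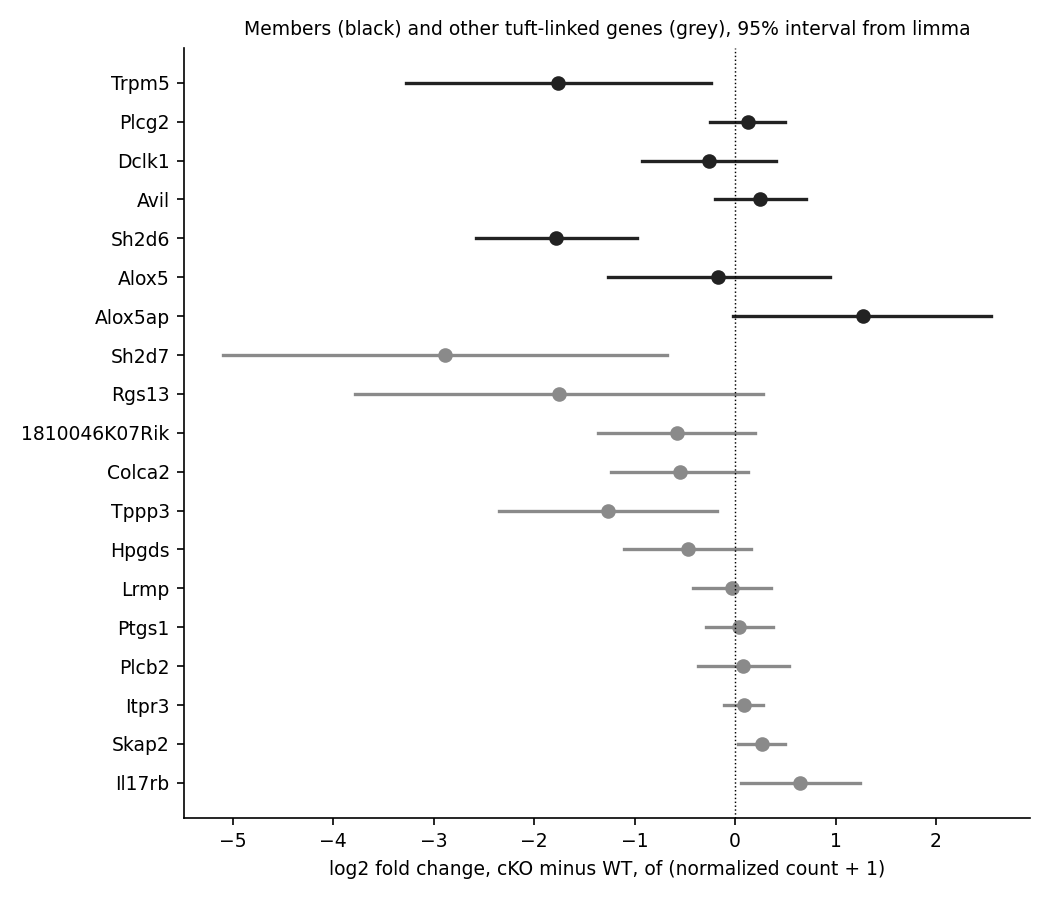
Log2 fold change of normalized count + 1, cKO minus WT (horizontal axis), with its 95% interval from limma, for the 7 tested members (black) and 12 other tuft-linked genes (grey). The intervals of Trpm5, Sh2d6, Sh2d7 and Tppp3 lie below 0 and those of Skap2 and Il17rb above it, before any adjustment for the number of genes. The 12 grey genes are a selection that followed no single rule, and Colca2 and 1810046K07Rik among them were picked after their values were seen. In the whole extended tuft list, 22 of the 42 tested genes were lower and 20 higher in cKO.

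Sh2d7, an SH2 domain gene of the extended tuft list, had 0, 14.4 and 2.06 normalized counts in cKO 1, 2 and 3 and 17.8, 26.1 and 36.9 in WT 1, 2 and 3. The genotypes did not overlap, with cKO 2 highest and cKO 1 lowest of the cKO libraries as for Trpm5 (log2 fold change −2.89, SE 0.94, unadjusted p = 0.0172, adjusted p = 0.293 from limma, 0.0371 to 0.527 over the alternatives). Rgs13, a regulator of G protein signaling that B cells also express, had 7.67, 31.0 and 2.06 in cKO and 16.8, 36.0 and 47.9 in WT (−1.75, SE 0.86, adjusted p = 0.406). Chat, the enzyme that makes acetylcholine in tuft cells and neurons, had 3.83, 0 and 1.03 in cKO and 4.94, 8.10 and 7.99 in WT, without overlap but below the level for testing. Tppp3, a tubulin-binding protein, had 120, 369 and 179 in cKO and 353, 500 and 632 in WT, where cKO 2 exceeded WT 1 (−1.27, SE 0.44, adjusted p = 0.317).

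Other genes linked to tuft cells lay on both sides of 0. Lrmp and Spib, both also expressed in B cells, had log2 fold changes of −0.03 (adjusted p = 0.947) and 0.17 (adjusted p = 0.895 from limma). The transcription factor Etv1 had 54.6 to 76.3 normalized counts in cKO and 77.9 to 98.1 in WT, and Nebl, Strip2 and Zfp428 were also below WT in every cKO library, with log2 fold changes of −0.61, −0.61 and −0.35, and none of these 4, picked after their values were seen, passed the adjusted test. Fam221a and Ly6g6f, looked at in the same way, overlapped between the genotypes. Fam221a had 45.1, 266 and 155 in cKO and 196 to 238 in WT. Skap2, an adaptor present in many cells, was at 1609 to 1998 normalized counts in cKO and 1498 to 1620 in WT (0.27, SE 0.10, unadjusted p = 0.0326, adjusted p = 0.328). In the extended tuft list of 49 further genes, 42 were tested, of which 22 were lower and 20 higher in cKO. An unadjusted p under 0.05 was reached by Sh2d7 and Tppp3 on the lower side and by Skap2 and Il17rb on the higher, against 7.08% and 6.91% of all genes tested, and 0 passed the adjusted threshold. The genotypes did not overlap for 7 of the 42 on the lower and 3 on the higher side, against 10.9% and 10.5% of all genes tested, and the median log2 fold change was −0.02. Without cKO 2, an unadjusted p under 0.05 was reached by 6 of the 42 on the lower and 4 on the higher side, against 8.77% and 8.94% of all genes. The adjusted threshold was then passed by Sh2d7 (log2 fold change −3.94, adjusted p = 0.0485) and by Cd300lf, a lipid-binding receptor of myeloid and tuft cells (1.79, adjusted p = 0.0386 from limma). Cd300lf had 285, 63.0 and 178 normalized counts in cKO and 60.9 to 69.3 in WT, highest in cKO 1 and cKO 3.

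The 3 cKO libraries did not order the members alike. cKO 2 had the highest level of the 3 cKO libraries for Pou2f3, Gfi1b, Trpm5, Sh2d6 and Alox5, which are 5 of the 9 members, where it was highest for 37.1% of all genes tested. cKO 1 was highest for Plcg2, Dclk1, Avil and Alox5ap, which are 4 of 9, against 38.6% of all genes, and cKO 3 for 0 of 9, against 24.3%. For Nedd4l, Trpm5, Sh2d6 and Pou2f3 the order was cKO 2, cKO 3, cKO 1 from high to low, though Sh2d6 was close in cKO 3 and cKO 1 (10.3 and 9.59). Other members ran otherwise. Alox5 had the order cKO 2, cKO 1, cKO 3, Plcg2 and Dclk1 had cKO 1, cKO 2, cKO 3, and Avil and Alox5ap had cKO 1, cKO 3, cKO 2. The share of all genes with each full order was not computed. Over the 6 libraries the log2 values of Trpm5 had a Pearson correlation of 0.97 with Pou2f3, 0.90 with Sh2d6 and 0.81 with Gfi1b, but of 0.09 with Dclk1 and −0.72 with Avil. These are descriptions over 6 libraries that share the genotype difference and the division by size factors.

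**Figure D3:**
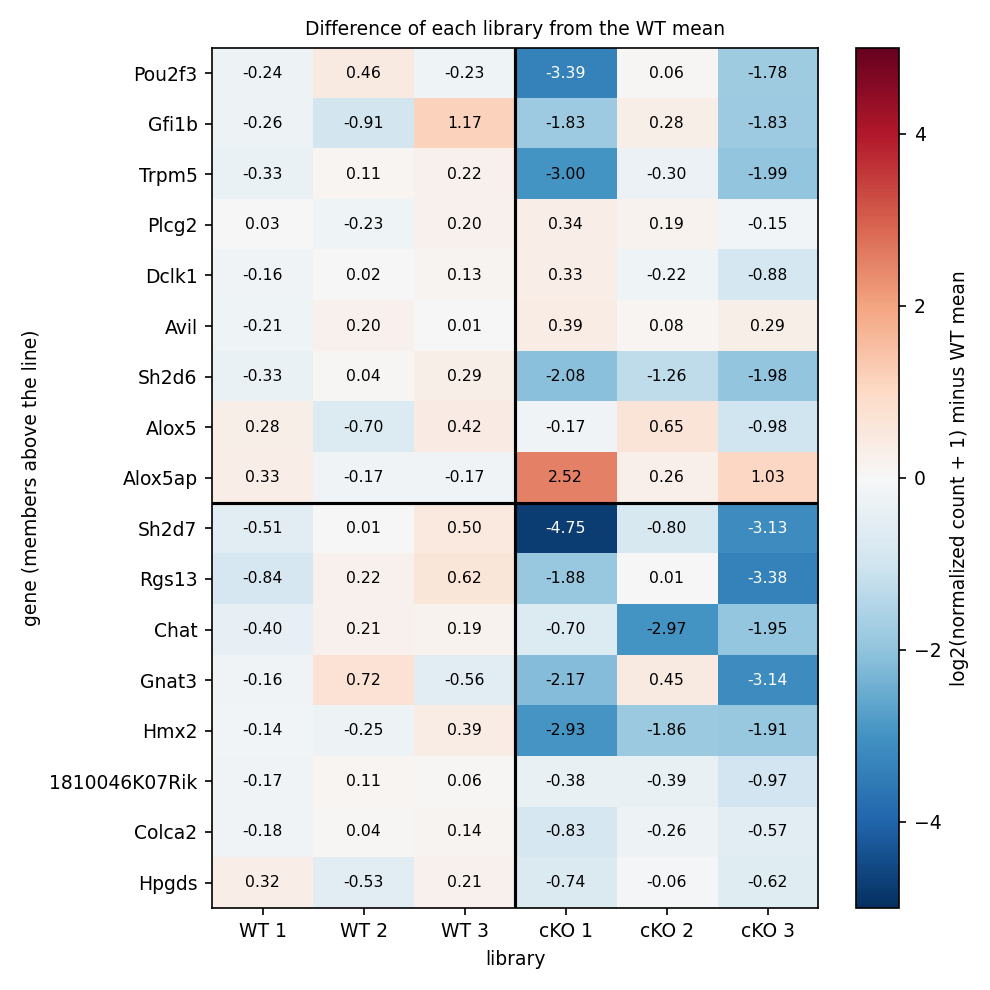
Log2 of normalized count + 1 in each library minus the mean of the 3 WT libraries, for the 9 members (above the line) and 8 other tuft-linked genes, with blue for lower, red for higher and the value printed in each cell. These 8 are a selection that followed no rule, and each has a lower mean in cKO. Of the 42 tested genes of the extended tuft list, 22 were lower and 20 higher in cKO. In cKO 1, Trpm5 is at −3.00 and Pou2f3 at −3.39 while Dclk1 is at 0.33, and in cKO 2 Trpm5 is at −0.30 and Pou2f3 at 0.06.

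Alox5 (ENSMUSG00000025701, chr6:116410077-116461178, minus strand) encodes the 5-lipoxygenase that begins leukotriene synthesis in tuft cells and in leukocytes. Its normalized count was 31.6, 56.4 and 17.5 in cKO and 43.5, 21.6 and 47.9 in WT, with cKO 2 highest and cKO 3 lowest of all 6 libraries (log2 fold change −0.17, SE 0.48, 95% interval −1.27 to 0.94, adjusted p = 0.893 from limma). Its sign turned without cKO 3 (0.24) and without WT 3 (0.04).

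Alox5ap (ENSMUSG00000060063, chr5:149264767-149288153, plus strand) encodes the activating protein that presents arachidonic acid to 5-lipoxygenase. It had 179, 36.5 and 62.9 normalized counts in cKO 1, 2 and 3 and 38.5, 27.0 and 27.0 in WT 1, 2 and 3. Levels in cKO 1 and cKO 3 were above every WT level, and that in cKO 2 was just below WT 1. Mean levels were 92.9 ± 76.0 (SD, n = 3) in cKO and 30.8 ± 6.66 (SD, n = 3) in WT, with a log2 fold change of 1.27 (SE 0.55, 95% interval −0.02 to 2.55, unadjusted p = 0.0522, adjusted p = 0.360 from limma). It was 0.64 without cKO 1 and 1.77 without cKO 2. Across the 6 libraries Alox5ap ran opposite to Trpm5, with a Pearson correlation of −0.97 of the log2 values. Of its exon bases, 13.3% lie within Gm19719 on the opposite strand, which had at most 8.63 normalized counts.

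The neutrophil genes S100a8, S100a9, Cxcr2, Csf3r and Ngp followed the same order of cKO libraries as Alox5ap. Ly6g, highest in cKO 2, and Camp, lowest in cKO 3, did not. S100a8, a calcium-binding protein abundant in neutrophils, had 2708, 31.0 and 417 normalized counts in cKO 1, 2 and 3 and 12.8, 38.7 and 29.0 in WT 1, 2 and 3, and the neutrophil chemokine receptor Cxcr2 had 181, 4.42 and 20.6 against 0, 2.70 and 0. Both were highest in cKO 1, then cKO 3. The neutrophil list of 12 genes was carried by Ly6g in every library but cKO 1, with 2200 to 2832 normalized counts in cKO and 2829 to 3136 in WT. Without Ly6g, a choice made after seeing the data, the other 11 genes summed to 7944, 205 and 1272 in cKO and to 180, 151 and 189 in WT, and of the list's 9 tested genes 8 were higher and 1, Ly6g, lower in cKO. The neutrophil granule enzymes Mpo and Elane were at or below 3.83 in every library. Macrophage genes, 12 of 12 of them higher in cKO, summed to between 12082 and 14305 in cKO and between 8000 and 12113 in WT, and mast cell genes, 5 of 8 tested higher and 3 lower, to between 844 and 1827 against 864 to 954, or, without their top gene Kit, to 562, 1183 and 601 against 139 to 215. The part of these cells in the Alox5ap level was not tested.

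**Figure D4:**
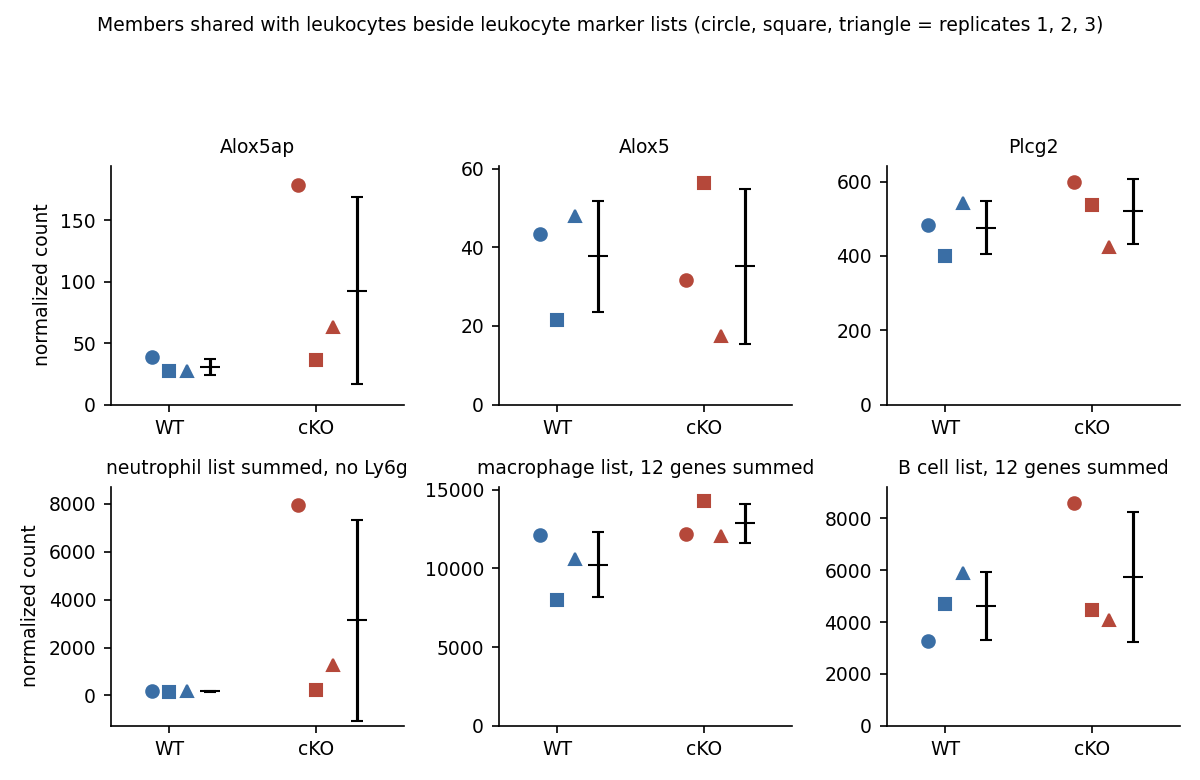
Normalized count of Alox5ap, Alox5 and Plcg2 (top) and of the summed neutrophil list without Ly6g (11 genes), macrophage list (12 genes) and B cell list (12 genes) (bottom), in WT (blue) and cKO (red) libraries, with the same symbols for replicates and bars for the mean and SD. Alox5ap and the neutrophil sum both peak in cKO 1, at 179 and 7944.

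The rest of the eicosanoid pathway had no common direction. Ltc4s, which makes leukotriene C4, had 17.3, 8.84 and 5.16 normalized counts in cKO and 6.91, 8.10 and 4.99 in WT, highest in cKO 1 as Alox5ap was. Hpgds, the prostaglandin D2 synthase of tuft cells, mast cells and macrophages, had 117, 188 and 128 in cKO and 245, 136 and 228 in WT, overlapping by cKO 2 and WT 2 (log2 fold change −0.47, SE 0.28, adjusted p = 0.457 from limma). Ptgs1, the constitutive cyclooxygenase that tuft cells express, did not separate the genotypes (0.04, SE 0.15, 95% interval −0.29 to 0.38, adjusted p = 0.906). The inducible cyclooxygenase Ptgs2, which stromal and myeloid cells express among others, had 362, 203 and 292 in cKO and 107, 119 and 60.9 in WT without overlap (1.59, SE 0.31, unadjusted p = 0.000944, adjusted p = 0.169 from limma, 0.0180 to 0.490 over the alternatives). Which cells carried Ptgs2 here was not tested. Of 29 listed genes, 23 were tested, 12 on the lower and 11 on the higher side. An unadjusted p under 0.05 was reached by Ptges3 on the lower side and by 2 genes, Ptgs2 and Ggt1, on the higher, against 7.08% and 6.91% of all genes tested, none passed the adjusted threshold in limma, and the median was −0.02. Without cKO 2, 4 were lower and 4 higher at that unadjusted p, and Dpep1, a dipeptidase that converts leukotriene D4, passed the adjusted threshold (log2 fold change −1.20, adjusted p = 0.0433). Dpep1 had 1029, 2809 and 877 normalized counts in cKO and 1759 to 2528 in WT.

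Il25 itself was not analysed here, and the genes of the circuit it feeds were mostly on the higher side. Il17rb, the IL-25 receptor subunit carried by innate lymphoid cells and by tuft cells, had 66.1, 79.6 and 97.0 normalized counts in cKO and 39.5, 58.5 and 55.9 in WT, without overlap (log2 fold change 0.65, SE 0.25, unadjusted p = 0.0337, adjusted p = 0.331 from limma). Il13 was scarce, at 0, 8.84 and 4.13 in cKO and 5.93, 4.50 and 4.99 in WT. The IL-4 and IL-13 receptor chain Il4ra had 2879, 1382 and 1749 in cKO and 1119, 1003 and 1007 in WT, without overlap (0.87, SE 0.26, adjusted p = 0.282). The decoy receptor Il13ra2 had 82.4, 33.2 and 25.8 against 10.9, 10.8 and 13.0 (1.76, SE 0.45, adjusted p = 0.218), and the eosinophil granule protein Prg2 had 47.0, 40.9 and 20.6 against 6.91, 9.90 and 11.0 (1.80, SE 0.40, adjusted p = 0.202). Siglecf, an eosinophil lectin that tuft cells also carry, had 35.4 to 38.3 in cKO and 24.0 to 34.2 in WT (0.34, SE 0.26, adjusted p = 0.560).

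Of the 30 genes of this type 2 list, 22 entered the test, 19 on the higher and 3 on the lower side in cKO, with a median log2 fold change of 0.42. An unadjusted p under 0.05 was reached by 8, all on the higher side, against 6.91% of all genes tested, while 0 passed the adjusted threshold, and 9 were higher without overlap, where this held for 10.5% of all genes tested. Without cKO 1, 18 of the 22 were higher, 6 of them at an unadjusted p under 0.05, where 5.27% of all genes were, and without cKO 2, 10 of the 22 reached it on the higher side against 8.94% of all genes. The list includes receptors and chemokines that stromal and myeloid cells express, and its members were chosen with earlier results of these libraries known. Eosinophil genes summed to between 577 and 1516 normalized counts in cKO and 418 to 530 in WT, with Csf2rb as their top gene in both, and fibroblast genes were highest in cKO 1, and their part in these values was not tested.

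Per kb of gene, the order of the members differed between the genotypes below Plcg2. In WT, Sh2d6 (25.6 ± 5.58, SD, n = 3), Avil (25.0 ± 3.54) and Alox5ap (21.7 ± 4.69 normalized counts per kb) followed and did not differ beyond their spread, then Dclk1 (12.8 ± 1.28), Trpm5 (10.8 ± 2.09) and Alox5 (9.17 ± 3.43), each within the spread of its neighbour, and last Pou2f3 (3.17) and Gfi1b (1.80). In cKO, Alox5ap (65.4 ± 53.5) came second, then Avil (29.8 ± 3.22), Dclk1 (11.3 ± 4.56), Alox5 (8.57 ± 4.79), Sh2d6 (7.21 ± 2.58), Trpm5 (4.14 ± 3.96), Pou2f3 (1.30) and Gfi1b (0.604). Sh2d6 thus went from second to sixth place, and the neighbours Dclk1, Alox5, Sh2d6 and Trpm5 each lay within the spread of the next in cKO.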

How the data were processed

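Total RNA of colon was extracted with TRIzol and made into 3 cKO and 3 WT libraries with a NEBNext Ultra RNA kit, which does not mark strand. Per the submitters' processing notes, HISAT2 2.0.5 and featureCounts 1.5.0-p3 were used. Those notes name the human build hg18, but the table holds mouse identifiers, of which 27164 of 27202 are in GENCODE release 21 on GRCm38, and 97.0% of rows have identical coordinates there. The deposited values are a signal, the normalized count, on a linear scale. The authors also deposited genotype means, log2 fold changes, p-value and adjusted p-value columns, which were not used.

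Values were tested as log2(value + 1), for genes with a mean of at least 10, with limma 3.58.1 (lmFit, then eBayes with trend and robust settings) under R 4.3.3 and Benjamini-Hochberg adjustment at 0.05, and the code was tested on simulated data. Fold changes on this scale understate those of low genes. Every value was a whole multiple of its library's smallest value (tolerance 0.01), and totals in that unit ran from 14914367 to 17547270. Since 1 library did not pass the check for recovered reads, no count model was run. The labels do not say that each library is a separate mouse, so p-values measure only the spread between these samples, which may be technical.

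The members and the gene lists were chosen with earlier results of these data known. Named genes are the members, Nedd4l, up to 5 genes of smallest unadjusted p in the extended tuft, taste transduction, type 2 and eicosanoid lists, a set of tuft and circuit genes named whatever their values (1 of which is not reported here), the top or defining markers of each marker list, and the 5 genes most like the members' profile. Colca2, 1810046K07Rik, Hmx2, Hmx3, Etv1, Nebl, Strip2, Zfp428, Fam221a, Ly6g6f, the genes overlapping members, and the neutrophil and epithelial markers printed were chosen after their values were seen. Alternatives changed the pseudocount, filter, scaling, model settings and libraries used.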

Additional observations from a re-analysis of the deposited data

How the results depend on the processing

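Of 16 other settings 14 were run, and 2 count models were not. Against 0 genes and 0 members at an adjusted p under 0.05, 30 genes (23 lower, 7 higher) passed with no filter on low values and 631 (369 lower, 262 higher) with array weights, which gave cKO 3 a weight of 4.39 and the other libraries 0.414 to 1.34. With array weights 2 members passed, Sh2d6 and Trpm5, and the log2 fold change of Nedd4l was −1.09 (adjusted p = 0.0212 from limma). Leaving out each library in turn gave 0 to 122 genes, 0 to 1 members and a Nedd4l log2 fold change from −1.28 to −0.79. The 122 genes and Trpm5 passed without cKO 2, and 24 genes without cKO 1. Signs reversed for Plcg2 with array weights (−0.11), for Dclk1 without cKO 3 (0.05, within −0.55 to 0.05 when each library was left out), and for Alox5 without cKO 3 (0.24) and without WT 3 (0.04), within −0.57 to 0.24. The cause was not tested. Avil and Alox5ap kept their direction and their side of the threshold in 14 of 14 settings. The members' median ran from −0.74 (array weights) to 0.24 (without cKO 3), turning from −0.17 to a positive sign also without WT 3 (0.04). At a mean of at least 50 it was 0.19, but Trpm5, Sh2d6 and Alox5 were not tested there. That value covers only Plcg2, Dclk1, Avil and Alox5ap, whose log2 fold changes did not move in that setting. With the replicate block 0 genes and 0 members passed. The numbers do not pair the samples, since deviations of same-numbered libraries correlated at −0.0286, −0.0898 and −0.0556. Counts of higher genes in the 4 gene lists stayed within 1.5 times when each cKO library was left out, a choice made after seeing the data.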

Other observations

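The mean standardized log2 profile of Pou2f3, Gfi1b, Trpm5, Dclk1, Avil and Sh2d6 was −0.54, 0.16 and −0.78 in cKO 1, 2 and 3 and 0.00, 0.50 and 0.66 in WT 1, 2 and 3. Among 11873 other protein-coding genes with a mean of at least 50 normalized counts, those with the highest Pearson correlation with it over the 6 libraries were Bcl7a (0.995), Katnal1 (0.989), Cdkn2c (0.988), Tfb1m (0.984) and Mtfr2 (0.981). Bcl7a, a chromatin remodeling subunit, had 253, 329 and 238 normalized counts in cKO and 309, 382 and 382 in WT. Cdkn2c, a cyclin-dependent kinase inhibitor, had 296, 350 and 264 in cKO and 332, 399 and 393 in WT. All 5 overlapped between the genotypes, with log2 fold changes between −0.46 and −0.22 that did not pass the adjusted test in limma. With 6 libraries and this many candidates, correlations of this size describe a ranking only.

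Of the other epithelial lineages, goblet cell genes summed to 103618, 483883 and 221902 normalized counts in cKO 1, 2 and 3 and to 328809, 167377 and 250157 in WT, and enteroendocrine genes to 2502, 4450 and 5082 against 4747, 3662 and 3625. The sums of both lists overlapped between the genotypes, and both sums were lowest of the 6 libraries in cKO 1. Trpm5, Sh2d6 and Pou2f3 were lowest there as well, whereas Plcg2, Dclk1, Avil and Alox5ap had their highest level of the 6 libraries in cKO 1. Mature colonocyte genes, 10 of 12 lower and a median log2 fold change at −0.43, summed to 57021, 98529 and 62694 in cKO and 79933 to 101891 in WT, again with cKO 2 within the WT range. None of these lists had a gene at an adjusted p under 0.05 in limma. Of the 12 tested genes in each, 1 goblet gene was lower and 1 enteroendocrine gene higher at an unadjusted p under 0.05. Among all genes tested, 7.08% reached it on the lower and 6.91% on the higher side. Without overlap, 1 goblet gene was lower and 3 enteroendocrine genes were higher, against 10.9% and 10.5% of all genes tested.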
